A study of Homo sapiens with 18 samples.

Results

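ΔNp53:WTp53 was compared with WTp53 in transfected NCI-H1299 cells, on the 6 of the 18 arrays of the series that carry these titles in experiments 0, 4 and 5. All probe sets with exactly 1 gene symbol entered the comparison, 19460 of the 33297 on the array, and they stand for 18417 genes. NCI-H1299 is a human non-small cell lung carcinoma line without p53, so every group shares that background and all p53 came from the plasmid. The plasmids were GFP vectors (pIRES-2EGFP), delivered transiently with Lipofectamine 2000, and RNA was taken from sorted green cells 40 hours later. WTp53 is the full-length protein. The labels name the other construct ΔNp53:WTp53 and do not state how its forms are joined, in what proportion, or how much protein was made, and levels from a transfected plasmid need not be those of a cell's own gene. The first set also holds 3 empty vector arrays from the same experiments, which are no part of the comparison and are given as levels only. The second set, experiments d, e and f, holds empty vector, WTp53 and tethered WTp53. The tethered arrays are grouped by their titles, while their transfection field names ΔNp53:WTp53.

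p53 is a transcription factor that binds DNA as a tetramer and turns on genes for cell cycle arrest, death, repair and its own control. The isoform ΔNp53 lacks the start of the N-terminal activation domain, which is also where the ubiquitin ligase MDM2 binds, and keeps the parts that bind DNA and form tetramers, so it can enter tetramers with the full-length protein. Mice with an excess of a short isoform of this kind age early, and the title of the series ties the isoform to the mTOR pathway, mitochondria and that phenotype. Many genes of mitosis carry a CHR element, TTTGAA or TTCGAA, close to the transcription start with CCAAT boxes upstream of it. These bind the DREAM and MuvB complexes and the factor NF-Y, and p53 lowers such genes through p21 and DREAM. Genes of endoplasmic reticulum chaperones carry the ER stress response element, CCAAT and CCACG with 9 bases of any kind between them, and targets of the stress factor ATF4 carry composite sites such as TGATGNAA.

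Some promoters of genes past the threshold are shown because they hold these letters. The sequences are RefSeq's at GRCh38.p14, taken from 300-base windows with 250 bases before the first listed start of each gene, and each stretch printed ends at the base before the start. The first 5 belong to mitosis genes that were lower with ΔNp53:WTp53, chosen among genes with both motifs within 150 bases of the start. Capitals mark TTTGAA or TTCGAA and CCAAT on either strand.
CKS2, chr9:89311045-89311194, plus strand: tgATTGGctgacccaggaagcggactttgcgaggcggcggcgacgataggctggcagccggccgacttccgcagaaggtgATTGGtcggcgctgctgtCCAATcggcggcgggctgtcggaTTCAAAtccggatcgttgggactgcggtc
CCNB2, chr15:59104996-59105145, plus strand: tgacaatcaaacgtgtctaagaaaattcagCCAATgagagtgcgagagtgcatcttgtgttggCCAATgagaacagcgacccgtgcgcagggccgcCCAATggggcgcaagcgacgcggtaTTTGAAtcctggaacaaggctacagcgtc
HMMR, chr5:163460482-163460631, plus strand: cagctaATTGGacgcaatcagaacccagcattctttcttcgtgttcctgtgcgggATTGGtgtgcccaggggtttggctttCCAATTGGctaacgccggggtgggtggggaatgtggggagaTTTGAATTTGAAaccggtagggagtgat
KIF4A, chrX:70289954-70290103, plus strand: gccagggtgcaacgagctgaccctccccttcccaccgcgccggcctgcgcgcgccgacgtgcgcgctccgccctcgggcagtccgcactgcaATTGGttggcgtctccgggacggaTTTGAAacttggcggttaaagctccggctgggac
PLK1, chr16:23678739-23678888, plus strand: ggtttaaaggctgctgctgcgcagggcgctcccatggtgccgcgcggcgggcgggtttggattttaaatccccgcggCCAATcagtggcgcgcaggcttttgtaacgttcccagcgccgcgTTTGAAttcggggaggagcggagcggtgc

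The next 3 are the chaperone genes past the threshold that hold the ER stress response element, and capitals mark all 19 bases of it on either strand.
HSPA5, chr9:125241344-125241443, minus strand: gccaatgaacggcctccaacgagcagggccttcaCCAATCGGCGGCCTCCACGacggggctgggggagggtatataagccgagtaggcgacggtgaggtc
HSP90B1, chr12:103930210-103930409, plus strand: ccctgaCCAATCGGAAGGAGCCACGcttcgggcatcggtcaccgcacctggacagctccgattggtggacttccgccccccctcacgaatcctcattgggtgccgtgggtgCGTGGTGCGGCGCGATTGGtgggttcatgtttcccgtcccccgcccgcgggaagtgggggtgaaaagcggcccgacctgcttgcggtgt
CRELD2, chr22:49918534-49918633, plus strand: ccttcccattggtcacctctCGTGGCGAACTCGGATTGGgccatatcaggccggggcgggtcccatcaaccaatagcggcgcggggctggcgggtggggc
CHAC1, the ATF4 target that rose most, is shown with TGATGNAA in capitals, here on the other strand.
CHAC1, chr15:40953251-40953470, plus strand: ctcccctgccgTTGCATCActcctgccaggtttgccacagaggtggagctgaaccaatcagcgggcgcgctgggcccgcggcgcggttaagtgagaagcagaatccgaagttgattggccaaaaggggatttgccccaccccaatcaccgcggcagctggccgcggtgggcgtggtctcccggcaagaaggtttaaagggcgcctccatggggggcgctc

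Log2 intensities were fitted with limma over the 9 arrays of the first set, with the experiment as a block, and p-values were adjusted over all 19460 probe sets by the Benjamini-Hochberg method with a threshold of 0.05. Differences below are ΔNp53:WTp53 minus WTp53 on the log2 scale ± the standard error of that fit, with n = 3 arrays in each group. Past the threshold were 820 probe sets (4.21% of those tested) for 796 genes, of which 509 were higher (2.62%) and 311 lower (1.6%) with ΔNp53:WTp53. At least 2-fold differences numbered 44 higher and 48 lower. With each array centred on its median the split was 567 higher and 208 lower. All 820 differed in 1 direction in the 3 experiments, as did 41.4% of all probe sets. The 2 groups of 3 arrays did not overlap for 776 of the 820, against 20.4% of all probe sets. The probe sets nearest the threshold on the inside were those of TRIM61 (0.50), TOX2 (0.41) and SELP (−0.45), and on the outside those of DYNLL1 (−0.37), PHTF2 (−0.52) and IRF1 (1.2).

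Experiment 0 stood apart in levels and in the size of its differences. The mean level of 31 interferon-stimulated genes was 8.62, 8.10 and 8.32 on its vector, WTp53 and ΔNp53:WTp53 arrays, and 6.33 to 6.49 on the 6 arrays of experiments 4 and 5. In all 3 groups 28 of the 31 were highest in experiment 0, and the part of these genes in the results was not tested. The differences there had a standard deviation of 0.249 across probe sets, while those of experiments 4 and 5 had 0.312 and 0.344. Among the probe sets past the threshold, the median rise was 0.47, 0.71 and 0.64 and the median fall −0.44, −0.65 and −0.70 in experiments 0, 4 and 5. Without experiment 0, 2324 probe sets passed (1157 higher, 1167 lower), of which 790 were among the 820. Without experiment 4 there were 9, all lower: GDF9, CLCA2, SERPINB5, DAW1, PTH2R, SLC2A2, SATL1, ADGRG1 and INPP5D. Without experiment 5 there was 1, GDF9. At an unadjusted p under 0.05 the last 2 fits held 1725 and 2427 probe sets. Across all alternatives no called probe set changed sign. The standard deviation between arrays was 0.151 for ΔNp53:WTp53 at its median over probe sets, 0.109 for WTp53 and 0.104 for the vector. Array medians lay between 4.89 and 4.97.

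Marker levels are given as a description, and calls between the constructs do not identify the cells. Of 8 markers of carcinoma cells, 3 lay under the median of all probe sets. KRT18, VIM and KRT8 were high in both groups (10.40, 10.97 and 9.35 with WTp53), while EPCAM and CDH1 lay near the low end of the scale (3.10 and 3.66). CDH2, N-cadherin, rose by 0.59 ± 0.10 (limma adjusted p = 0.0212). The mean over 12 leukocyte markers was 4.30 to 4.34 on the WTp53 arrays and 4.12 to 4.28 on the ΔNp53:WTp53 arrays, with 0 past the threshold. Endothelial and lung epithelial markers, 7 and 10 genes, also had 0. Of 10 fibroblast markers 1 passed, the smooth muscle actin ACTA2, which fell by 0.59 from 9.07 with WTp53, and its vector mean was 5.60.

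**Figure D1:**
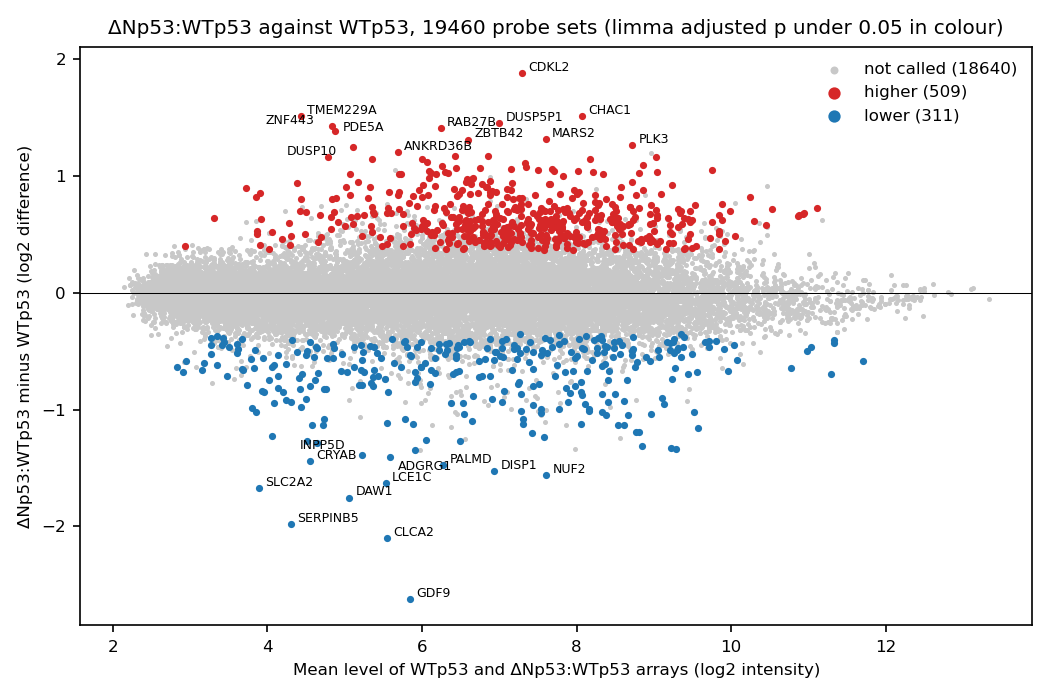
Difference between ΔNp53:WTp53 and WTp53 (log2, y axis) against the mean level over both groups (log2 intensity, x axis) for 19460 probe sets; red points are the 509 higher and blue points the 311 lower past the limma threshold, and the 24 genes with the largest differences are named. The falls reach further than the rises, to −2.62 for GDF9 against 1.88 for CDKL2.

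Of the 12 largest falls, 11 were in genes whose level was higher with WTp53 than with the vector, and in 6 of them the ΔNp53:WTp53 mean lay within 0.5 of the vector mean. Choosing large falls favours genes with high WTp53 readings, and the shares over all probe sets were not counted. These counts therefore only describe the 12 genes. GDF9, which encodes a growth factor of the oocyte in the TGF-beta family, fell the most, 6.14-fold. Its levels were 6.92, 7.43 and 7.13 on the WTp53 arrays of experiments 0, 4 and 5, and 4.42, 4.61 and 4.60 with ΔNp53:WTp53, a difference of −2.62 ± 0.10 (limma adjusted p = 1.565e-05). The vector arrays read 4.00, 4.16 and 4.13, so the ΔNp53:WTp53 arrays lay just above them and far under WTp53. GDF9 kept its call in all 9 fits that left out an array or an experiment. In the RefSeq gene table of GRCh38.p14 its span overlaps that of its neighbour UQCRQ, a subunit of respiratory complex III, which changed by −0.41 ± 0.08 (limma adjusted p = 0.0311).

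CLCA2, a membrane protein known as a p53 target, read 6.13, 7.02 and 6.63 with WTp53 and 3.87, 4.78 and 4.83 with ΔNp53:WTp53 (−2.10 ± 0.18). SERPINB5, the tumour suppressor maspin and another p53 target, read 5.00, 5.54 and 5.34 against 3.21, 3.39 and 3.35 (−1.98 ± 0.10). In both genes each ΔNp53:WTp53 array lay under every WTp53 array, and the means of the vector arrays were 3.17 and 2.96. SLC2A2, the glucose transporter GLUT2, fell from 4.31, 4.97 and 4.88 to 3.02, 3.01 and 3.14 (−1.67 ± 0.14), with vector arrays at 2.80, 2.75 and 3.04. LCE1C, a protein of the cornified envelope with close relatives in its cluster, fell by 1.63 ± 0.25, and its ΔNp53:WTp53 mean of 4.72 was next to the vector mean of 4.74.

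The falls also included DAW1, an assembly factor of ciliary dynein (−1.75 ± 0.12), CRYAB, the small heat shock protein alpha B-crystallin (−1.44 ± 0.14), the adhesion receptor ADGRG1 (−1.41 ± 0.10) and INPP5D, the inositol phosphatase SHIP1 (−1.39 ± 0.10). For INPP5D the ΔNp53:WTp53 arrays (4.63, 4.44 and 4.53) lay just above the vector array of the same experiment (4.57, 4.26 and 4.50) and under WTp53 (5.94, 6.01 and 5.80). DISP1, which releases Hedgehog ligands, and PALMD, palmdelphin, kept a level between both. DISP1 read 5.63, 6.55 and 6.34 with ΔNp53:WTp53, with a vector mean of 4.67 and a WTp53 mean of 7.70, and its difference was −1.52 ± 0.16. PALMD fell by 1.47 ± 0.16 to a mean of 5.54, against 3.37 for the vector. NUF2 was the exception among the 12, since its vector and WTp53 means were 8.52 and 8.39, and it is described with the mitosis genes.

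**Figure D2:**
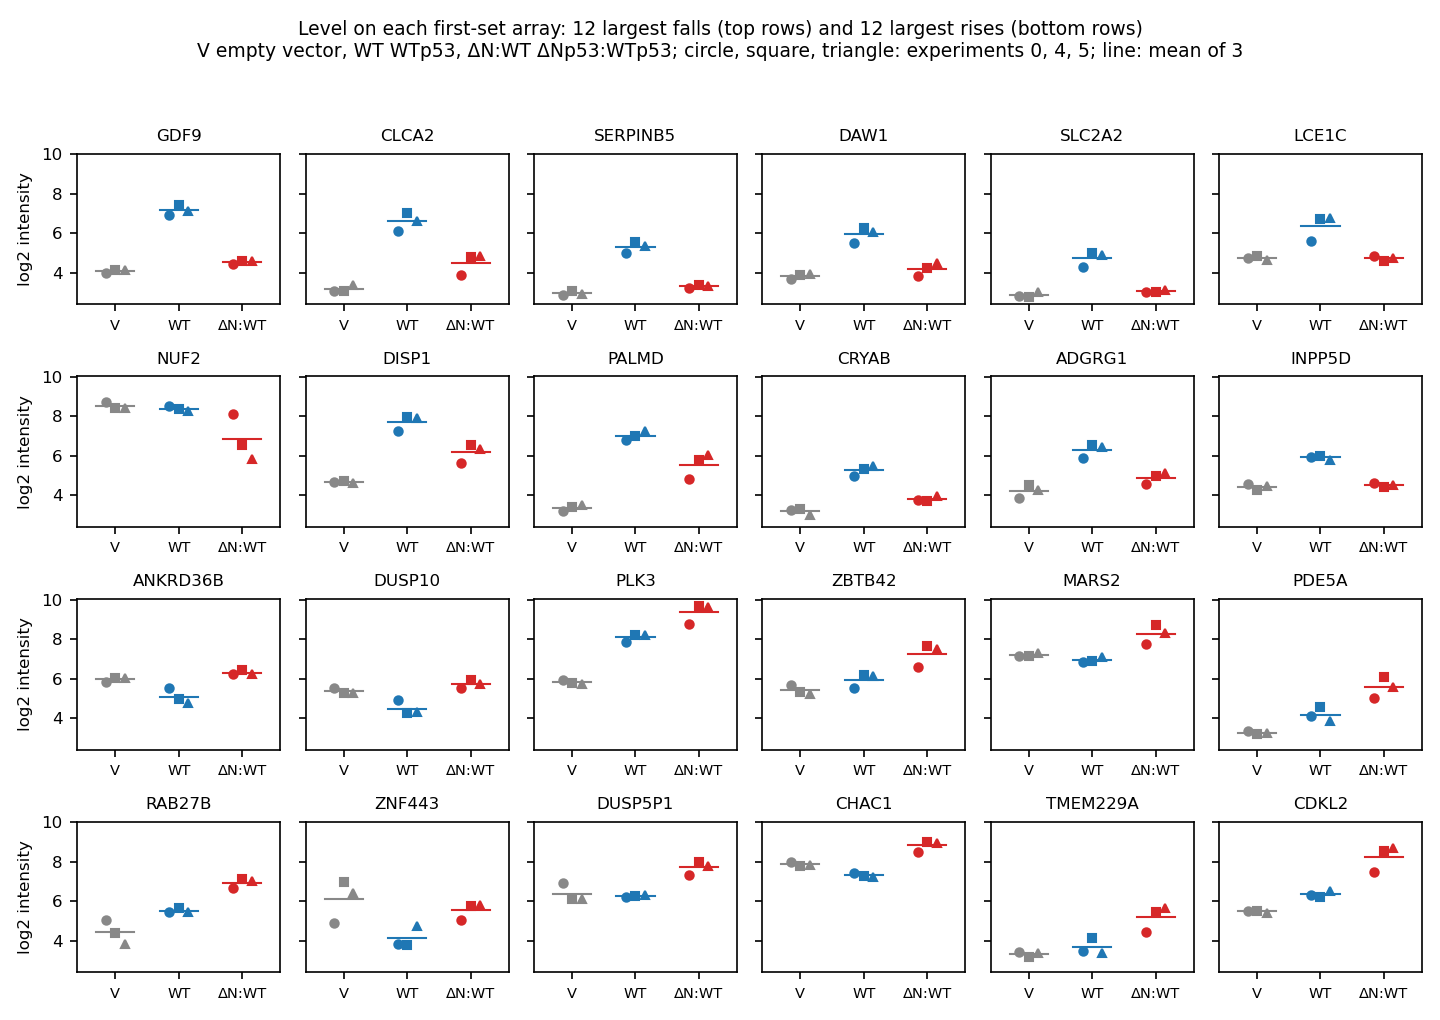
Level (log2 intensity) of the 12 genes with the largest falls (upper 2 rows) and the 12 with the largest rises (lower 2 rows) on each array of the first set, by group; circles, squares and triangles are experiments 0, 4 and 5 and the line is the mean of 3 arrays. For all 24 genes the ΔNp53:WTp53 arrays do not overlap the WTp53 arrays, as for 20.4% of all probe sets. The genes were chosen for these differences, so this is no separate result. For GDF9, SERPINB5, DAW1, SLC2A2, LCE1C and INPP5D the ΔNp53:WTp53 mean is within 0.5 of the vector mean.

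The largest rise was in CDKL2, a protein kinase related to the cyclin-dependent kinases, at 3.68-fold. It read 6.30, 6.23 and 6.53 with WTp53 and 7.48, 8.54 and 8.68 with ΔNp53:WTp53, a difference of 1.88 ± 0.23 (limma adjusted p = 0.00608), and experiment 0 gave the smallest rise. CHAC1, which degrades glutathione, read 7.42, 7.29 and 7.24 against 8.51, 9.02 and 8.95 (1.51 ± 0.14, limma adjusted p = 0.00297). Its vector arrays lay between both groups, at 7.98, 7.80 and 7.86. TMEM229A, a transmembrane protein, rose by 1.51 ± 0.27, from 3.51, 4.15 and 3.38 to 4.43, 5.48 and 5.65.

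PLK3, a polo-like kinase of the stress response, read 7.86, 8.22 and 8.19 with WTp53 and 8.78, 9.68 and 9.61 with ΔNp53:WTp53 (1.27 ± 0.18), and 5.81 on average with the vector. RAB27B, a GTPase of vesicle release, followed the same order of levels, with means of 4.44, 5.54 and 6.95 for vector, WTp53 and ΔNp53:WTp53 (1.41 ± 0.25). PDE5A, the cyclic GMP phosphodiesterase, also rose through 3.27, 4.18 and 5.56 (1.38 ± 0.20). DUSP10, a phosphatase of stress kinases, and ANKRD36B, of a family of near-identical copies, were instead lowest with WTp53. DUSP10 read 4.92, 4.23 and 4.30 with WTp53, 5.55, 5.95 and 5.71 with ΔNp53:WTp53 (1.25 ± 0.17), and 5.35 on average with the vector. ANKRD36B rose by 1.21 ± 0.17 to 6.29, against a vector mean of 5.97.

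MARS2, the mitochondrial methionyl-tRNA synthetase, rose by 1.32 ± 0.17, with vector and WTp53 means of 7.21 and 6.94. ZBTB42, a zinc finger protein, rose by 1.31 ± 0.24. DUSP5P1, a transcribed pseudogene whose span lies within RHOU, rose by 1.45 ± 0.23, while RHOU itself differed by 0.13 ± 0.12 and the parent gene DUSP5 by 0.32 ± 0.09 (limma adjusted p = 0.602 and 0.0842). ZNF443 rose by 1.43 ± 0.32 and its neighbour and near relative ZNF799 by 1.14 ± 0.26. Signals of close copies cannot be told apart by probes alone, so the ZNF443, ZNF799 and ANKRD36B values are uncertain between relatives.

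Known p53 targets passed the threshold in both directions. Of 78 measured genes in 4 lists, 4 were higher and 7 lower, beside 2.64% higher and 1.57% lower (4.22% in all) over the 18417 genes. CDKN1A encodes p21, the cyclin-dependent kinase inhibitor of the p53 arrest. It read 9.76, 10.00 and 9.91 with WTp53 and 8.46, 9.18 and 9.25 with ΔNp53:WTp53, against 5.27 on average with the vector. All 3 ΔNp53:WTp53 arrays lay lower, and the difference of −0.93 ± 0.28 did not pass the threshold (limma adjusted p = 0.102). MDM2, the ligase that restrains p53, read 11.64, 11.62 and 11.61 against 11.11, 11.36 and 11.46 (−0.31 ± 0.12, limma adjusted p = 0.184), without overlap. GDF15, a secreted stress cytokine, read 8.15, 8.21 and 8.22 against 6.81, 6.86 and 7.21, and fell by 1.23 ± 0.13 (limma adjusted p = 0.00443), between the WTp53 level and the vector mean of 5.23.

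Among the 24 arrest and feedback targets the list median was −0.14, and PLK3, GADD45B (0.67 ± 0.10) and GDF15, SESN1 (−0.49 ± 0.09) passed in opposite directions. GADD45B is a stress sensor upstream of MAP kinases and SESN1 a sestrin that restrains mTORC1. The 20 apoptosis targets had a median of −0.11, and 2 fell. They were TP53AIP1, a mitochondrial protein, from 4.11, 4.66 and 4.43 to 3.49, 3.80 and 3.67 (−0.74 ± 0.13), and SIVA1 (−0.51 ± 0.10). Of 16 repair and metabolism targets 1 fell, RRM2B, the p53-inducible ribonucleotide reductase subunit (−0.55 ± 0.09), and the median was −0.01. Of 18 adhesion and secretion targets CLCA2 and SERPINB5 fell and 2 rose, the transporter SLC4A11 (1.05 ± 0.20) and the proteoglycan VCAN (0.61 ± 0.13). SLC4A11 and VCAN thus stood above their WTp53 means of 9.22 and 7.52, which were themselves above the vector means of 5.52 and 3.55. The p53 half-site was found in 1 to 2 promoters of each list, 5.0% to 14.3% of those with a sequence, and in 5.94% of all 14239 promoters.

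Genes of mitosis were lower with ΔNp53:WTp53. Of 98 measured genes in 3 lists, 37 fell and 0 rose, with a median of −0.83, against a median of −0.01 over all genes and 1.57% of genes lower. Of the 24 mitotic kinases, cyclins and their regulators 15 fell, of the 36 genes of kinetochore and spindle checkpoint 13, and of the 38 kinesins, condensins and anaphase genes 9. In the 37 genes the median level was 8.65 with the vector, 8.67 with WTp53 and 7.82 with ΔNp53:WTp53. These genes were chosen for ΔNp53:WTp53 lying below WTp53, so that order follows from the choice. The choice also favours high WTp53 readings, so the closeness of WTp53 to the vector only describes these 37. In RNA from many cells, fewer cells in mitosis and less RNA per cell cannot be told apart. In 69 of the 98 genes all 3 experiments gave a lower level.

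The size of the fall differed between experiments. Over the 98 genes the medians of experiments 0, 4 and 5 were −0.19, −0.92 and −1.26, and experiment 0 had the smallest fall in 36 of the 37 genes. CENPW was the exception. Without experiment 0, 78 of the 98 passed as lower and 1 as higher, and without experiment 4 or 5 none did. Removing the block for experiments left 9.

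PLK1, the kinase of centrosome and spindle, read 9.86, 9.94 and 9.87 with WTp53 and 9.43, 8.40 and 7.85 with ΔNp53:WTp53 (−1.33 ± 0.24, limma adjusted p = 0.0235). AURKA, the Aurora kinase of the spindle poles, read 9.46, 9.55 and 9.49 against 8.86, 8.13 and 7.59 (−1.31 ± 0.22). CCNB1, cyclin B1, which drives entry into mitosis, read 10.27, 10.19 and 9.98 against 9.85, 8.80 and 8.33 (−1.16 ± 0.22). In these genes the WTp53 arrays lay within 0.08 to 0.29 of each other, while the ΔNp53:WTp53 arrays spread over 1.27 to 1.58, with experiment 5 the lowest. CKS2, a small partner of cyclin-dependent kinases, fell by 1.33 ± 0.19, and BIRC5, survivin of the chromosomal passenger complex, by 0.93 ± 0.13, with the smallest adjusted p of the 3 lists (limma adjusted p = 0.00928). FOXM1 and MYBL2, transcription factors of the mitotic programme, both changed by −0.86, with standard errors of 0.17 and 0.18.

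At the kinetochore, NUF2 of the NDC80 complex had the largest fall, from 8.53, 8.38 and 8.26 to 8.14, 6.54 and 5.82 (−1.56 ± 0.34, limma adjusted p = 0.0402). Its partners NDC80 (−0.88 ± 0.19) and SPC25 (−0.94 ± 0.20) fell too, as did MAD2L1 of the spindle checkpoint (−0.99 ± 0.16) and SGO1, the protector of cohesin at centromeres (−1.26 ± 0.27). Among motors and spindle proteins the falls were HMMR (−1.20 ± 0.21), the kinesins KIF2C (−1.13 ± 0.21), KIF20A (−1.04 ± 0.21) and KIF4A (−1.02 ± 0.18), and PRC1, which bundles the spindle midzone (−1.19 ± 0.26). In 6 of the 98 genes the difference was above 0, among them CDK1, the main mitotic kinase. It read 6.44, 4.80 and 4.90 with WTp53 and 7.50, 5.42 and 4.95 with ΔNp53:WTp53, a difference of 0.57 ± 0.34 that did not pass (limma adjusted p = 0.391). The vector arrays read 8.20, 7.79 and 7.91, so CDK1 was lower with WTp53 than with the vector in each experiment.

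**Figure D3:**
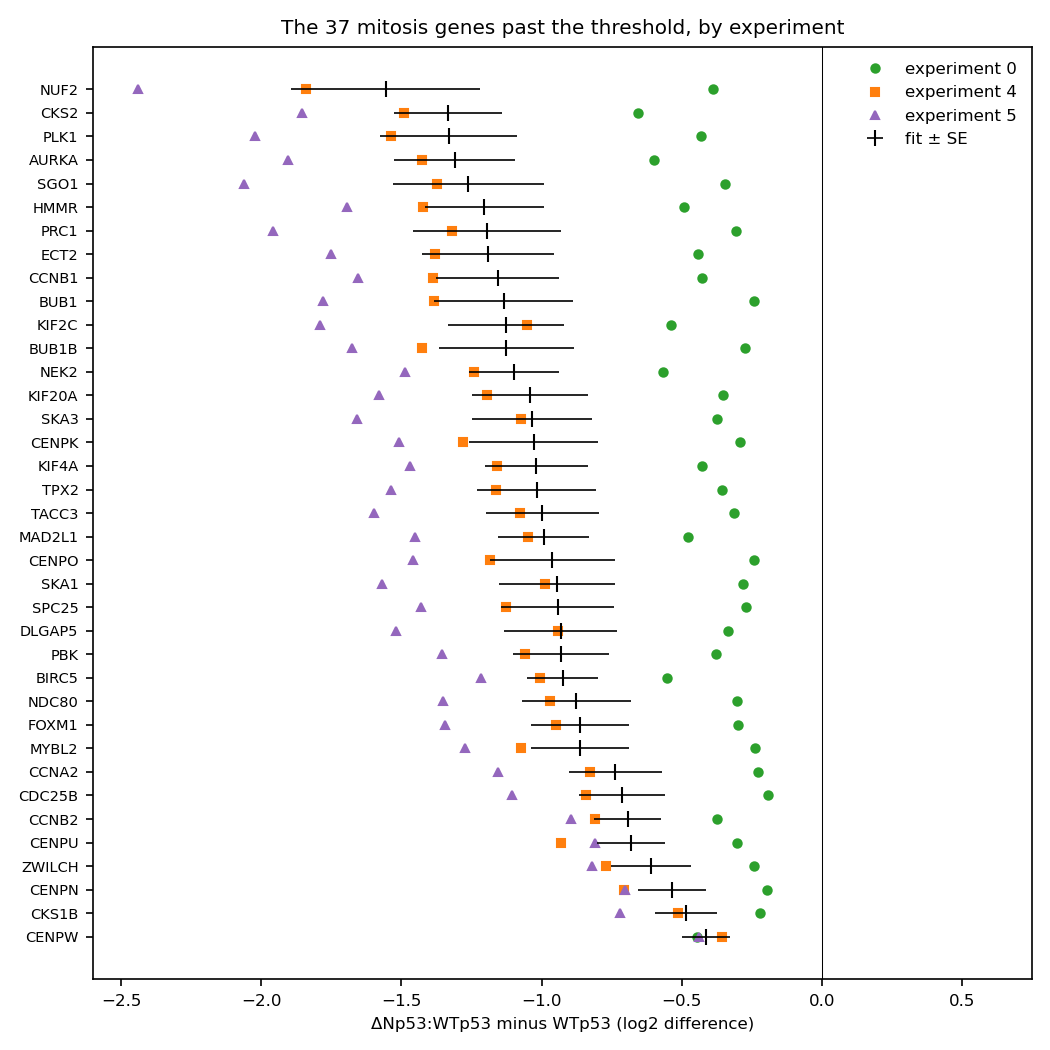
Difference between ΔNp53:WTp53 and WTp53 (log2) in each experiment for the 37 mitosis genes past the threshold; the black bar is the fitted difference ± SE of 3 experiments. Experiment 0 lies closest to 0 in 36 of the 37 genes, and NUF2 spans the widest range.

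TTTGAA or TTCGAA stood in 51 of the 81 promoters of these lists that have a sequence (63.0%), and in 13.3% of all 14239 promoters of genes on the array. CCAAT, which occurs within other motifs too, stood in 65.4% against 36.3%, and both together in 46.9% against 5.44%. Among the genes past the threshold both motifs stood in 15 of 32 promoters (46.9%). In CKS2, CCNB2 and PLK1 the element starts 29 bases before the transcription start, in HMMR 2 copies start at 28 and 22 bases and in KIF4A 1 at 34, and the nearest CCAAT of each lies further upstream. These counts describe the promoters and no binding was measured.

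DNA replication genes had medians below 0. Past the threshold were 6.25% of the replication machinery, 5.26% of nucleotide supply and 4.35% of recombination genes, beside 4.22% of all genes (1.57% lower). Of 48 members of the replication machinery 3 fell and 0 rose, with a median of −0.43 and medians of −0.02, −0.57 and −0.77 in experiments 0, 4 and 5. They were RPA2, a subunit of the single-strand binding protein (−0.67 ± 0.15), POLD2 of DNA polymerase delta (−0.55 ± 0.13) and GINS4 of the replicative helicase (−0.39 ± 0.09). Without experiment 0, 32 passed as lower. Of 19 genes of nucleotide supply and S-phase entry 1 fell, RRM2, a ribonucleotide reductase subunit (−0.77 ± 0.17), and of 23 genes of homologous recombination and Fanconi repair 1, RAD51C (−0.39 ± 0.08), with 10 and 13 without experiment 0. Among 23 regulators of G1, CDK6 rose by 0.63 ± 0.09, from 8.27, 8.12 and 7.97 to 8.76, 8.76 and 8.74, which is the level of the vector arrays (mean 8.74).

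Of 56 replication-dependent histone genes 4 rose (7.14%, beside 2.64% of all genes) and 0 fell, with a median of 0.13. The medians of experiments 0, 4 and 5 were 0.31, 0.03 and 0.02, so the list median came mostly from experiment 0. Without experiment 0, 5 passed as higher and 3 as lower, and without experiment 4 or 5 none did. H2BC7 rose by 1.02 ± 0.15, from 5.69, 5.59 and 5.52 to 7.04, 6.42 and 6.42, and H3C10 by 1.16 ± 0.19, while H2AC20 and H2AC21 both rose by 0.62 ± 0.12. All 4 had a lower mean with WTp53 than with the vector, 5.60 against 7.81 in H2BC7. Histone genes of a class are close copies, so their probe sets may share signal.

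Of 20 feedback genes of the MAP kinase pathway 8 rose (40%, beside 2.64% of all genes) and 0 fell. Their median was 0.39, with medians of 0.31, 0.47 and 0.35 in experiments 0, 4 and 5. These genes encode inhibitors that ERK and stress kinases induce against themselves. They were the phosphatases DUSP10, DUSP14, DUSP6 and DUSP7, the Sprouty family members SPRY4, SPRED1 and SPRED2, and PHLDA1. DUSP14 read 7.91, 8.14 and 8.20 with WTp53 and 8.39, 9.06 and 9.08 with ΔNp53:WTp53 (0.76 ± 0.10), and DUSP6, which acts on ERK in the cytoplasm, rose by 0.57 ± 0.10. SPRED1 and SPRED2, which block RAS signalling to RAF, rose by 0.60 ± 0.13 and 0.55 ± 0.08. Without the block for experiments 7 passed, without experiment 0 it was 10, and without experiment 4 or 5 it was 0.

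Of 25 immediate-early factors 6 rose (24%, beside 2.64% of all genes) and 0 fell (median 0.24). FOSL2, a FOS-related subunit of AP-1, read 6.64, 6.96 and 7.0 against 7.28, 7.80 and 7.70 (0.73 ± 0.09, limma adjusted p = 0.00608). The orphan nuclear receptors NR4A2 and NR4A3 rose by 1.17 ± 0.18 and 0.63 ± 0.13, JUNB by 0.64 ± 0.11 and KLF6 by 0.44 ± 0.10. MYC read 8.93, 7.90 and 7.90 with WTp53, 9.48, 9.13 and 8.97 with ΔNp53:WTp53 (0.95 ± 0.15) and 9.80, 9.59 and 9.56 with the vector. Its WTp53 level was the lowest of the 3 groups in each experiment. Without the block for experiments 1 of the 25 passed, and without experiment 4 or 5 it was 0.

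Other regulators rose in smaller numbers. Past the threshold in either direction were 17.6% of clock, 8% of Notch, 15% of YAP and TEAD and 8% of inflammatory genes. The BCL2 and caspase list had 16.7% and the TGF-beta and BMP family 11.8%, beside 4.22% of all genes. Of 17 clock genes 3 rose, led by the repressors NFIL3 (1.0 ± 0.09) and BHLHE41 (1.02 ± 0.12), with PER1 at 0.47 ± 0.10. NFIL3 read 7.04, 7.44 and 7.49 with WTp53, 7.04, 7.44 and 7.44 with the vector, and 7.88, 8.48 and 8.61 with ΔNp53:WTp53. Of 25 Notch genes HES1, the main effector (0.86 ± 0.17), and RBPJ, the DNA-binding partner (0.51 ± 0.09), rose. AJUBA, AMOTL2 and VGLL3 rose among 20 YAP and TEAD targets, by 0.60 to 0.63. Among 25 inflammatory genes NFKBIA and NFKB2, which hold NF-kappaB in the cytoplasm, rose by 0.84 ± 0.10 and 0.63 ± 0.12, and no cytokine of the list passed. Among 18 genes of BCL2 proteins, caspases and their inhibitors BCL2L11, the death protein BIM (0.93 ± 0.19), DIABLO, which blocks caspase inhibitors (0.61 ± 0.10), and CASP8 (0.39 ± 0.08) rose. In the TGF-beta and BMP family the inhibitors NOG and FST both rose by 0.68, and ID4, a target of BMP, by 0.55 ± 0.10, while GDF9 fell. Without experiment 4 or 5 none of these rises passed.

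Insulin and mTOR genes passed at shares near the 4.22% of all genes. IRS1, the adaptor that links the insulin and IGF receptors to PI3 kinase, read 4.72, 4.81 and 4.80 with WTp53 and 5.79, 6.20 and 5.78 with ΔNp53:WTp53, a rise of 1.14 ± 0.11 (limma adjusted p = 0.00297). The vector arrays (mean 4.95) lay near WTp53. It was the only call among 24 genes of the IGF and insulin pathway (4.17%), whose median was 0.05. Of 35 mTOR and AMPK genes 2 (5.71%) fell, PRKAB2, a beta subunit of AMPK (−0.58 ± 0.12), and LAMTOR2, of the complex that anchors mTORC1 to lysosomes (−0.44 ± 0.10), with a median of −0.12. Of 22 genes of the nuclear lamina, RecQ helicases and telomeres, which hold the genes of several progeroid syndromes, 0 passed with limma. The lowest adjusted p in that list was that of LMNB1, lamin B1 (−0.67 ± 0.17, limma adjusted p = 0.0643).

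Mitochondrial lists had medians slightly below 0. Past the threshold were 12.1% of complex I genes, 4.17% of complexes II to V and 0% of the mitochondrial ribosome. The share of import and biogenesis genes was 14.3%, and that of all genes 4.22% (1.57% lower). Of 154 measured genes of the respiratory complexes and the mitochondrial ribosome 6 fell and 0 rose, the median was −0.13, and 90 (58.4%) were lower in all 3 experiments, as were 21.6% of all genes. The medians in experiments 0, 4 and 5 were −0.10, −0.15 and −0.09. Such a small shift was not particular to these lists. Of 64 cytosolic ribosomal protein genes 39 were lower in all 3 experiments, with a median of −0.09. Of 33 complex I subunits 4 fell, NDUFA2 (−0.53 ± 0.10), NDUFB3 (−0.52 ± 0.11), NDUFA3 (−0.36 ± 0.08) and NDUFB6 (−0.42 ± 0.10). NDUFA2 read 7.77, 7.76 and 7.87 with WTp53, 7.37, 7.33 and 7.12 with ΔNp53:WTp53 and 7.80, 7.73 and 7.70 with the vector. Of 48 subunits of complexes II to V COX7A2 of cytochrome oxidase fell by 0.49 ± 0.09, as did UQCRQ. TFAM, which packs and transcribes mitochondrial DNA, fell by 0.53 ± 0.10, and among 35 genes of import and biogenesis 2 rose and 3 fell in all. Of 73 mitochondrial ribosome genes 0 passed, with a lowest limma adjusted p of 0.0666 for MRPL23, and without experiment 0 it was 6.

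Of 30 genes of endoplasmic reticulum chaperones and the unfolded protein response 5 fell (16.7%, beside 1.57% of all genes) and 0 rose, with a median of −0.23. HSPA5, the chaperone BiP, read 11.76, 11.63 and 11.52 with WTp53 and 11.27, 10.95 and 10.62 with ΔNp53:WTp53 (−0.69 ± 0.10, limma adjusted p = 0.0103), and HYOU1, its exchange factor, fell by 0.75 ± 0.12. HSP90B1, the chaperone GRP94, fell by 0.43 ± 0.09, CRELD2, an ER stress protein, by 0.39 ± 0.08 and DERL2, of the export channel for misfolded proteins, by 0.53 ± 0.09. For HSPA5, HYOU1 and HSP90B1 the WTp53 mean was above that of the vector (11.64 against 11.13 in HSPA5). The 19-base element stood in 7 of 27 promoters of the list (25.9%) and in 17 of all 14239 (0.119%), with 2 copies in HSP90B1. Without the block for experiments 3 passed, without experiment 0 it was 9, and without experiment 4 or 5 it was 0.

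ATF4 targets and amino acid genes rose in 3 of 32 (9.38%, beside 2.64% of all genes), with a median of 0.11. These were CHAC1, VLDLR, a lipoprotein receptor (1.06 ± 0.12), and the hormone STC2 (0.66 ± 0.13). VLDLR read 6.83, 6.48 and 6.56 with WTp53, 7.54, 7.80 and 7.70 with ΔNp53:WTp53 and 6.88, 6.97 and 7.06 with the vector. TGATGNAA was found in 5 of 26 promoters of the list (19.2%) and 2.54% of all. Of 19 cytosolic aminoacyl-tRNA synthetases 0 passed with limma, with a lowest adjusted p of 0.13 for TARS1.

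Several lists held 0 to 2 genes past the threshold, from 0% of the interferon list to 14.3% of the heat shock list, beside 4.22% of all genes. HK2, hexokinase 2, rose by 0.55 ± 0.12 as the only call among 25 glycolysis and hypoxia genes. In the NRF2 list SRXN1, sulfiredoxin, fell by 0.95 ± 0.18 and NFE2L2, which encodes NRF2, rose by 0.43 ± 0.09. EBP, a sterol isomerase, fell by 0.55 ± 0.11 as the only call of 26 sterol and fatty acid genes. HSPA4L rose by 0.53 ± 0.11 and CRYAB fell among 14 cytosolic heat shock genes, and of 34 autophagy genes UVRAG rose by 0.37 ± 0.08. ITGA3 rose by 0.82 ± 0.16 and COL4A1 fell by 0.53 ± 0.11 among 82 collagen, laminin and integrin genes. Of 31 interferon-stimulated genes 0 passed, the lowest limma adjusted p being 0.119 for IFIT1. Among 64 ribosomal protein genes 2 fell, RPL39L and RPL26L1, both paralogs of a standard subunit.

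Zinc finger genes and small RNAs passed at shares near the 4.22% of all genes. Of 439 ZNF genes 17 rose and 6 fell (5.24% in all, median 0.07), and the smallest p-values belonged to ZNF202, which fell by 0.90 ± 0.10 from 7.27, 7.52 and 7.30 to 6.55, 6.54 and 6.29, and to ZNF292, which rose by 0.80 ± 0.09. Of 115 C/D box small nucleolar RNAs 3 rose and 1 fell (3.48%). SNORD44 rose from 7.50, 6.89 and 7.06 to 8.24, 8.20 and 8.18 (1.06 ± 0.12), and SNORD78 by 0.93 ± 0.10. Both lie in introns of the host gene GAS5, and their vector means were 8.63 and 8.52. Of 77 H/ACA and Cajal body RNAs 1 rose and 3 fell (5.19%).

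**Figure D4:**
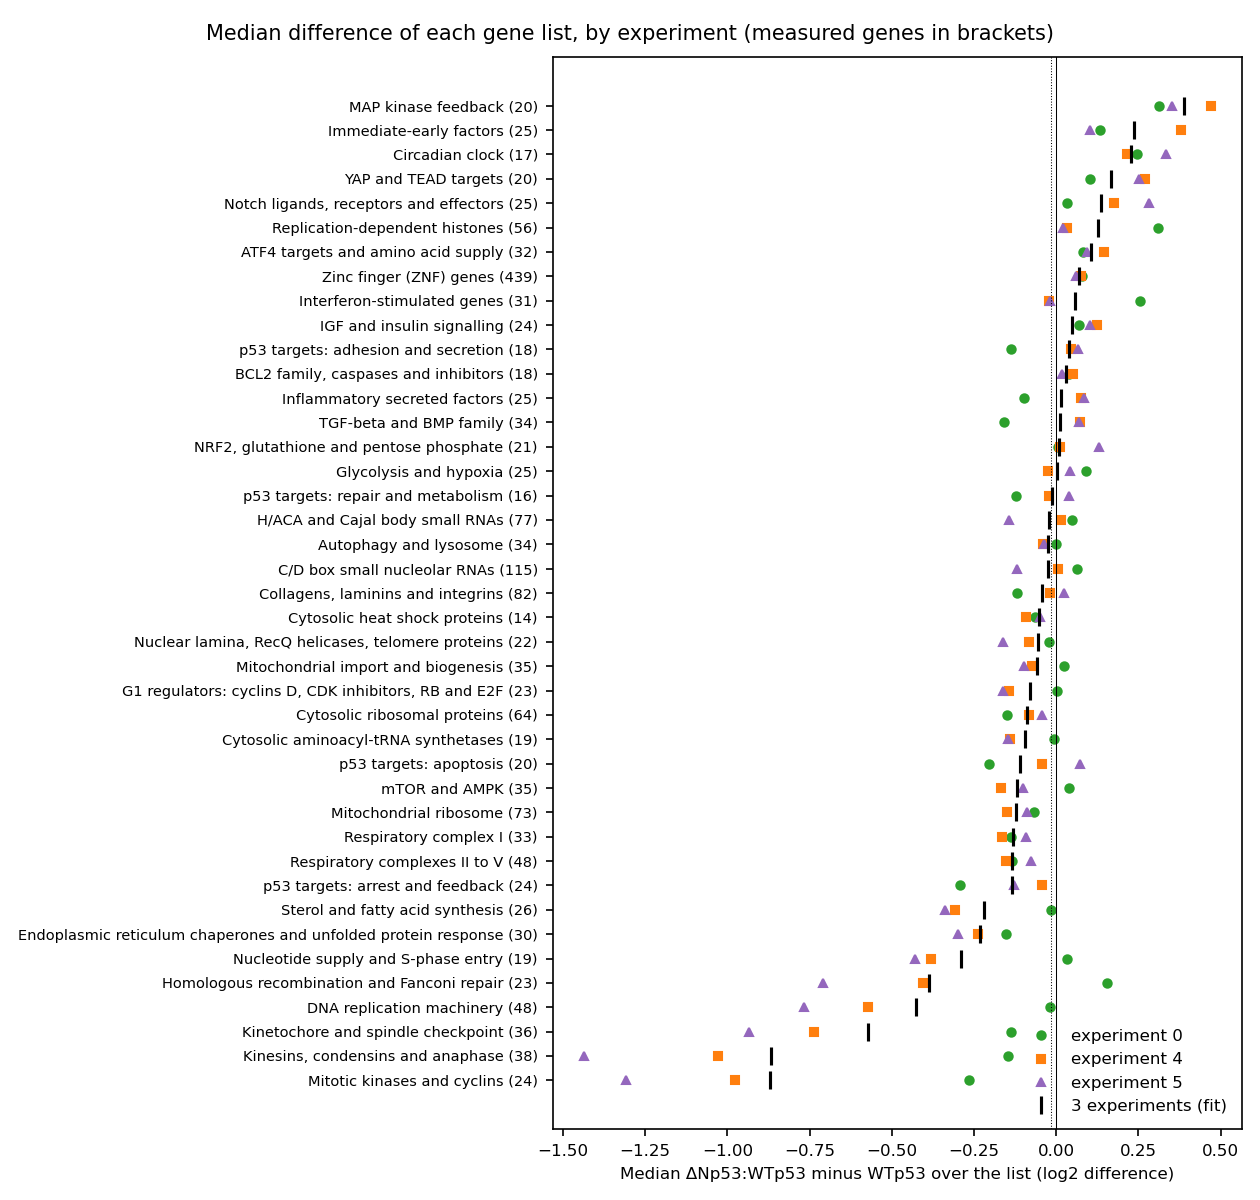
Median difference between ΔNp53:WTp53 and WTp53 (log2) over the measured genes of each list, in experiments 0, 4 and 5 (symbols) and in the fit of all 3 (black bar); the dotted line is the median of all probe sets, −0.02. The 3 mitosis lists lie lowest, with experiment 0 nearest 0, and MAP kinase feedback lies highest.

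Tethered WTp53 offers a second construct tested against WTp53, in the second set of arrays. The difference between both effects was tested in a fit of all 18 arrays with the experiment as a block within each set and weights per set. It passed the threshold for 717 probe sets (3.68%), of which 370 were higher (1.9%) and 347 lower (1.78%) with ΔNp53:WTp53, and these held 299 of the 820. Tethered WTp53 itself differed from WTp53 at 6630 probe sets (34.1%), with weights of 1.97 for arrays of the second set and 0.507 for the first. The labels do not say whether experiments d, e and f were separate transfections, so these p-values measure only the spread between the arrays, which may be technical. Levels were not compared between sets, which were normalized apart.

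The genes named for large differences or small p-values were chosen on the ΔNp53:WTp53 value, which is part of the difference of effects. How many of them passed the test of that difference is therefore no evidence about them, and their values are a description. In the 11 of the 12 largest falls where it passed, the tethered differences ran from −0.99 to 0.58. GDF9 changed by −0.99 with tethered WTp53 against −2.62 (limma adjusted p of the difference of effects = 0.000865), CLCA2 by −0.41 against −2.10 and SERPINB5 by −0.60 against −1.98. GDF15 rose by 1.22 with tethered WTp53 and fell by 1.23 with ΔNp53:WTp53 (difference of effects −2.45 ± 0.19, limma adjusted p = 7.945e-05). DISP1 likewise rose by 0.58 with the tethered protein. CDKN1A had a tethered difference of 0.09, and its difference of effects, −1.02 ± 0.26, passed narrowly (limma adjusted p = 0.0486), while that of MDM2 did not (−0.48 ± 0.16, limma adjusted p = 0.123).

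For the 12 largest rises all tethered differences were above 0. CHAC1 rose by 1.38 with tethered WTp53 and 1.51 here, with a difference of effects of 0.13 ± 0.14 (limma adjusted p = 0.679), and PLK3 by 2.04 against 1.27 (−0.77 ± 0.21, limma adjusted p = 0.0564). RAB27B rose by 1.70 against 1.41. MARS2 (0.03 with the tethered protein), CDKL2 (0.45) and DUSP10 (0.22) had differences of effects past the threshold. IRS1 and VLDLR, named for small p-values here, had tethered values of 0.15 and 0.00 (limma adjusted p of the difference of effects = 0.00196 and 0.00153).

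With tethered WTp53 71 of the 98 mitosis genes fell, where 34.1% of all probe sets passed in either direction, and their median was −0.35. The difference of effects passed for 10 of the 98, beside 3.68% of all probe sets. The respiratory genes lay lower with the tethered protein, with list medians of −0.25 for complex I and −0.22 for complexes II to V, and 1 gene of each list had a difference of effects past the threshold. Such medians were not particular to them. The tethered median was −0.31 for the DNA replication machinery, −0.30 for H/ACA and Cajal body RNAs and 0.23 for immediate-early factors. The chaperones HSPA5 (0.04 with tethered WTp53), HYOU1 (0.21) and HSP90B1 (0.25) had differences of effects past the threshold, and were named for small p-values here. Of the 30 genes of their list 6 passed that test, beside 3.68% of all probe sets, and the tethered list median was 0.04.

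**Figure D5:**
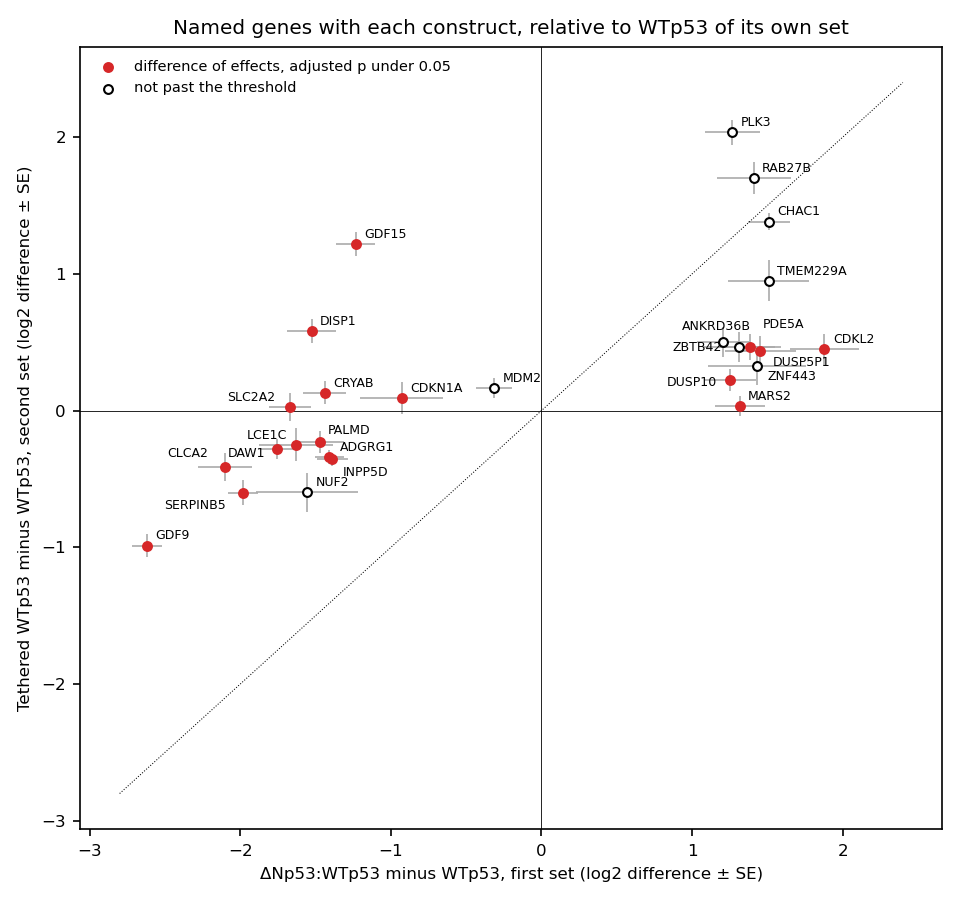
Difference from WTp53 (log2 ± SE) with ΔNp53:WTp53 in the first set (x axis) and with tethered WTp53 in the second (y axis) for the 24 genes with the largest differences and CDKN1A, MDM2 and GDF15; filled points have a difference of effects past the limma threshold and the dotted line marks equal values. GDF15 lies at −1.23 and 1.22, and CHAC1 lies next to the line.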

How the data were processed

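RNA from transfected cells was hybridized to 18 Affymetrix Gene arrays. The values are log2 intensities that the authors deposited. Per the submitters' processing notes, RMA, which corrects background, normalizes quantiles and summarizes the probes of a set, was run in Affymetrix Expression Console, and versions are not given in the sources used here. RMA was run on each set apart. The sets also differ in scale, and the cause was not tested.

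Probe sets were named from GEO's platform annotation (19460 with 1 symbol, 1754 with several and 12083 not listed, of 33297), and 0 symbols changed against the current gene table. No filter on dim probe sets was applied. For the 769 genes with several probe sets, the one with the highest mean stands for the gene in lists. In 52 of them at least 1 probe set passed the threshold, in 14 all did, and in 0 did passing probe sets differ in sign. The probe set of the transfected gene is not reported here.

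In R 4.3.3, limma 3.58.1 (lmFit, eBayes, two-sided, Benjamini-Hochberg) was fitted to the 9 first-set arrays with a mean per group and the experiment as a block (4 residual degrees of freedom); vector arrays inform the spread and the experiment terms only. Experiments 0, 4 and 5 pair arrays: the series calls them independent transfections, and all 9 residual correlations between same-experiment arrays of different groups were above 0.1 (0.105 to 0.567), against 6 of 18 between different experiments (−0.494 to 0.342). Those 6 were all between experiments 4 and 5. The correlations thus set experiment 0 apart and do not separate 4 from 5, whose pairing rests on the labels. An exact permutation test cannot fall under p = 0.1 with 3 arrays against 3, or 0.25 with 3 pairs. In simulated data with 50 shifted probe sets per fold size, the fit found 2% of 1.2-fold, 80% of 1.5-fold and 100% of 2-fold and of 4-fold shifts, and 9 of 150 calls were false. These rates describe the simulated data. They need not hold for the arrays, where differences varied between experiments and calls depended on the experiments kept.

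Named are the 12 largest rises and 12 largest falls past the threshold with 1 sign in all experiments, CDKN1A, MDM2 and GDF15, and up to 4 members of each of 46 gene lists by smallest p, besides other members past the threshold, motif-bearing genes and neighbours, which were chosen after their values were seen. The members and lists were chosen with earlier results of these data known. Lists are described by counts and medians, with no test of a list. No cause was tested.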

Additional observations from a re-analysis of the deposited data

How the results depend on the processing

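Each setting below changed 1 choice, except where the arrays and the block are named together, and the main counts were 820 probe sets past the threshold, 509 higher and 311 lower. Without the replicate block for experiments 455 passed (291 higher, 164 lower), and the 6 arrays of the 2 groups gave 717 with the block and 95 (69 and 26) without it. All 18 arrays without a block gave 2785 (1341 and 1444), array weights 4174 (2042 and 2132), and adding the probe sets without a single symbol 252 (173 and 79). Trend and robust moderation gave 1147, of which 516 were lower. Leaving out arrays or experiments gave 1 to 2324 in all, 0 to 1157 higher and 1 to 1167 lower. Dropping dim probe sets (987), 1 probe set per gene (805), centring (775) and repeated quantile normalization (880) stayed within 1.5 times. The difference of effects, 717, became 459 with no replicate block, 767 without weights and 1331 without experiment 0. No named gene changed sign. Of 120 named genes past the threshold 76 stayed past it without the block, 20 with the 6 arrays and no block, and 118 without experiment 0, but 7 without experiment 4 and 1 without experiment 5. The cause was not tested. CDKN1A, which did not pass, passed in 3 of 11 other settings, and ran from −1.12 to −0.56. The number of arrays limits the precision. Signal over background is unknown. Only 9 of the 24 genes with the largest differences remained when dim probe sets were left out, and several falls end near the low end of the scale.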

Other observations

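Other genes with differences of at least 2-fold past the limma threshold belong to no list, and those given here were chosen after their values were seen. Among rises were DOT1L, the histone H3 lysine methyltransferase (1.11), MAP3K1, a kinase upstream of JNK (1.07), PTCH1, the Hedgehog receptor (1.02), FGF5, a fibroblast growth factor (1.02), ANGPTL4, an inhibitor of lipoprotein lipase (1.02), and FAT4, an atypical cadherin (1.01). Among falls were PTH2R, a parathyroid hormone receptor (−1.28), the adaptor SLA (−1.23), PADI3, a peptidylarginine deiminase (−1.08), and BDKRB1, a bradykinin receptor (−1.08). PTH2R kept its call without experiment 4, at −1.58.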
